A study of Mus musculus with 4 samples.

Results

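The TRAIL and death receptor pathway was followed through 10 genes, named by symbol, among the 41862 gene columns of 4 single-cell count tables. They are the ligand gene Tnfsf10, the receptor genes Tnfrsf10b, Fas, Tnfrsf1a and Tnfrsf1b, the signalling genes Fadd, Casp8 and Cflar, and the BCL2 family genes Bid and Bax. All 10 had a column in every table.

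The cells were taken from C57BL6 mice carrying Aldh1l1CreERT2-TdTomato, in which an inducible Cre under the astrocyte promoter Aldh1l1 turns on a red reporter. TdTomato+ cells with LAMP1, a lysosomal membrane protein, on their surface were sorted by surface TRAIL. This gave 4 groups of 1 inDrops library each, named EAE TRAIL+, EAE TRAIL-, naive TRAIL+ and naive TRAIL-. EAE (experimental autoimmune encephalomyelitis, a mouse model of multiple sclerosis) was induced with 150 µg of MOG peptide in complete Freund's adjuvant, and the series description places these mice at the peak of disease. All 4 groups share the strain, the reporter and the surface LAMP1 gate; ages are not in the labels. There were 3 EAE and 3 naive mice, and the labels do not say whether their cells were pooled. With 1 library a group, no spread between animals was measured, no p-value was computed, and every 95% interval below covers counting error alone. UMIs (unique molecular identifiers, 1 per captured RNA molecule) of a gene cluster in few cells, which makes intervals on summed UMIs too narrow, so shares of cells stand beside the main ratios.

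Of 12987 listed barcodes, 7899 had at least 500 UMIs and at most 20% mitochondrial UMIs: 1814 EAE TRAIL+, 1597 EAE TRAIL-, 2229 naive TRAIL+ and 2259 naive TRAIL-. Their median depth was 1907.5, 1191, 1505 and 949 UMIs in the same order. The label "astrocytes" did not hold for most cells, since 187 of the 7899 fell in the clusters led by astrocyte genes. In naive TRAIL+, a list of 21 astrocyte markers summed to 51897 CPM in those cells (CPM, UMIs per 1000000 UMIs of the summed cells) and to 415 CPM in microglia-like cells. The same list named the clusters, so the first sum describes the name and does not test it. Clusters led by microglia genes held 4148 cells, those led by endothelial genes 1721, the pericyte-like cluster 1000 and the monocyte-like cluster 401. The libraries labelled TRAIL+ were mostly microglia-like, with 1632 EAE and 1890 naive cells, against 305 EAE and 321 naive microglia-like cells in the TRAIL- libraries. Endothelial- and pericyte-like cells came almost wholly from the TRAIL- libraries, which held 498 EAE and 1163 naive endothelial-like and 465 EAE and 515 naive pericyte-like cells. Each gene was therefore compared within a class and, between EAE and naive, within 1 sort label.

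TRAIL, encoded by Tnfsf10, is a ligand of the tumour necrosis factor family that can trigger cell death through receptors with a death domain in their tail. In mice the death-inducing TRAIL receptor is DR5, the product of Tnfrsf10b, while Fas binds Fas ligand and the products of Tnfrsf1a and Tnfrsf1b bind TNF. An engaged death receptor recruits the adaptor FADD and the protease caspase-8, and c-FLIP, the product of Cflar, competes with caspase-8 in that complex. Active caspase-8 can cleave BID, which activates BAX in the mitochondrial membrane. In the inflamed central nervous system the pathway is known both from immune cells and from glia.

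Tnfsf10 transcripts were found mainly in endothelial-like cells. Its gene lies at chr3:27317028-27342427 on the + strand of GRCm38. Over a whole library it reached 17.3 CPM in EAE TRAIL+, 48.6 in EAE TRAIL-, 4.4 in naive TRAIL+ and 100.4 in naive TRAIL-. The libraries labelled TRAIL+ thus held less Tnfsf10 RNA than those labelled TRAIL-; the label rests on surface protein, which RNA does not check. Endothelial-like cells were 31.2% of the EAE TRAIL- cells and 51.5% of the naive TRAIL- cells, and gave 78.2% of the Tnfsf10 UMIs of EAE TRAIL- and 94.2% of those of naive TRAIL-. In the TRAIL+ libraries, 83.1% of the EAE UMIs and 93.8% of the naive UMIs were in microglia-like cells.

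Within classes, Tnfsf10 stood at 173 CPM (95% interval 140 to 211) in EAE TRAIL- endothelial-like cells, with UMIs in 37 of 498 cells, and at 232 CPM (205 to 262) in naive TRAIL- ones, with UMIs in 100 of 1163. The 57 endothelial-like cells of naive TRAIL+ held 1 UMI. Microglia-like cells had 16.5 CPM in EAE TRAIL+, 41.4 in EAE TRAIL-, 4.82 in naive TRAIL+ and 19.7 in naive TRAIL-. Pericyte-like cells had no UMI in 465 EAE TRAIL- cells, which allows up to 6.13 CPM at 3 counts, and 11.4 CPM in 3 of 515 naive TRAIL- cells. Astrocyte-like cells, the labelled cell type, had none in 141 naive TRAIL+ cells, which allows up to 2.13% of cells with a UMI at 3 counts, and none in 35 naive TRAIL- cells (up to 8.57%). These limits hold for cells with a captured UMI, not for cells that express the gene. Oligodendrocyte-like cells had none in 35 EAE TRAIL- and 79 naive TRAIL- cells. The level in endothelial-like cells was 4.17-fold that in microglia-like cells in EAE TRAIL- (2.66 to 6.76) and 11.8-fold in naive TRAIL- (6.31 to 24.9). Against pericyte-like cells it was at least 28.2-fold higher in EAE TRAIL-, with 3 counts in place of 0, and 20.4-fold in naive TRAIL- (8.62 to 63.3). After thinning each cell to 500 UMIs, 5.59% of naive TRAIL- endothelial-like cells (4.34 to 7.07) and 0.62% of microglia-like ones (0.08 to 2.23) kept a Tnfsf10 UMI; in EAE TRAIL- they were 4.42% of endothelial-like (2.79 to 6.61) and 1.97% of microglia-like cells (0.73 to 4.23), with overlapping intervals.

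**Figure D1:**
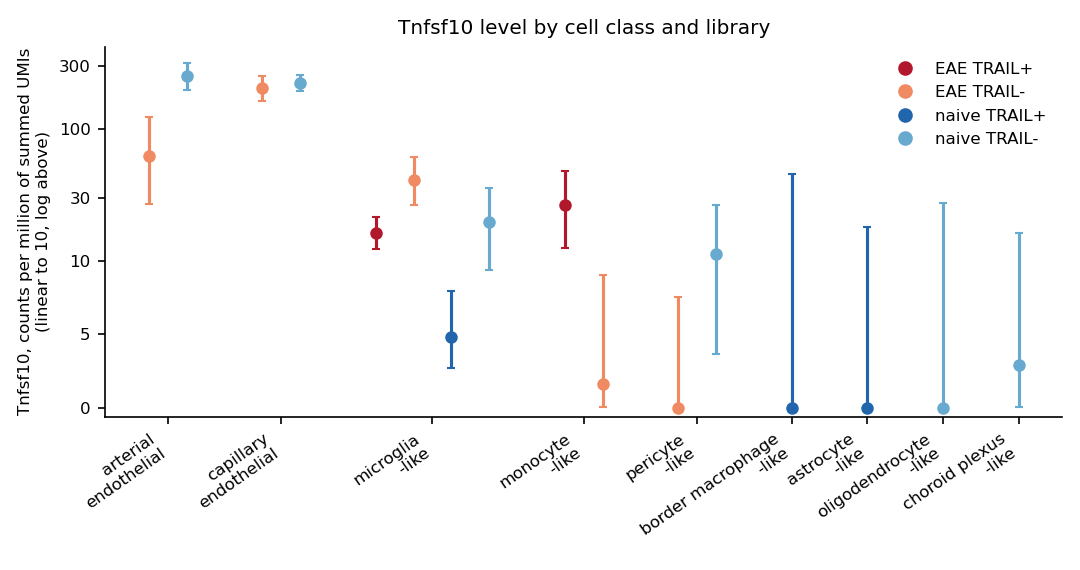
Tnfsf10 level (CPM of summed UMIs, linear to 10 and logarithmic above) in each cell class and library with at least 50 cells, with exact Poisson 95% intervals. Capillary and naive arterial endothelial cells lie above 200 CPM, arterial cells of EAE TRAIL- at 62.6, and the microglia-like cells between 4.82 and 41.4.

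The endothelial-like cells fell into 2 clusters. One of 371 cells was led by the arterial genes Gkn3, Vegfc, Sema3g and Bmx, and one of 1350 cells by Ndnf, Car4, Slc16a1 and Slc38a5, each compared with the other. No cluster was named venous, and Slc38a5 is on the venous marker list, so the cluster called capillary may hold venous cells. The arterial marker list summed to 6158 CPM in EAE TRAIL- and 5258 in naive TRAIL- arterial cells, against 1122 CPM in EAE TRAIL- and 975.3 in naive TRAIL- capillary cells. This list also named the arterial cluster, so the sums describe the name and do not test it. The 10 genes were left out of the clustering. In naive TRAIL-, arterial and capillary cells did not differ in Tnfsf10 by more than the interval: 252 CPM (197 to 318) in 28 of 255 arterial cells and 225 CPM (194 to 260) in 72 of 908 capillary cells, a ratio of 1.12 (0.841 to 1.48). In EAE TRAIL-, arterial cells had 62.6 CPM (27.0 to 123), 8 UMIs in 4 of 103 cells, and capillary cells 205 CPM (165 to 253), 89 UMIs in 33 of 395 cells, a ratio of 0.305 (0.128 to 0.627). By these clusters and set against naive, arterial cells of EAE were at 0.248-fold (0.103 to 0.516) and capillary cells at 0.913-fold (0.701 to 1.18).

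The arterial difference is less settled in cells than in UMIs. After thinning, 2.91% of the EAE arterial cells (0.60 to 8.28) and 7.45% of the naive arterial cells (4.55 to 11.4) had a Tnfsf10 UMI, so the intervals overlap. In capillary cells the shares were 4.81% in EAE and 5.07% in naive. When arterial and capillary were told apart by the marker UMIs of each cell, 40 EAE cells with 5 Tnfsf10 UMIs and 66 naive cells with 11 were arterial. The log2 ratio of EAE over naive in arterial cells was then -0.71, in place of -2.01 by cluster, and that of arterial over capillary was -1.05 in EAE and -0.70 in naive, in place of -1.71 and 0.16. The sum of 15 microglia markers moved with the arterial comparison, at 1080 CPM in EAE and 295 CPM in naive arterial cells, and 3 of the 15 (Tmem119, Sall1, Fcrls) were at 0 in EAE. Without cells with 1% or more of such UMIs the log2 ratio of EAE over naive was -1.97. The split by marker UMIs also took the endothelial class itself from them. In another split, cells of the 2 endothelial clusters were told apart by arterial, capillary and venous marker UMIs. There, 2 of 17 venous EAE cells held 18 Tnfsf10 UMIs, and none of 15 venous naive cells held any. Capillary cells of this split had 152 CPM in EAE (119 to 190) and 243 in naive (214 to 275). UMIs were in 33 of 438 EAE and 93 of 1073 naive capillary cells. Arterial cells had 104 CPM in EAE (33.7 to 242), from 5 UMIs, and 146 in naive (70.0 to 268), from 10. In this split the EAE level by summed UMIs was below the naive one in capillary as well as arterial cells. The arterial intervals overlap. Shares of capillary cells with a UMI were 7.53% in EAE (5.24 to 10.4) and 8.67% in naive (7.05 to 10.5), with overlapping intervals. By cluster, the capillary levels did not differ by more than the interval. Over all endothelial-like cells, EAE was at 0.746-fold of naive (0.584 to 0.945), which does not reach 1.5-fold.

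**Figure D2:**
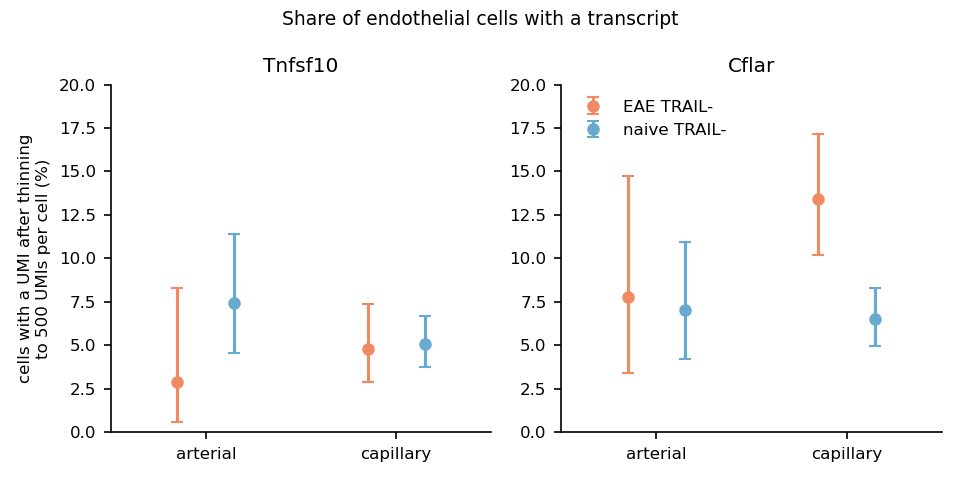
Share of arterial and capillary endothelial cells (%) with at least 1 Tnfsf10 (left) or Cflar (right) UMI after thinning each cell to 500 UMIs, EAE TRAIL- beside naive TRAIL-, with exact Clopper-Pearson 95% intervals. The Tnfsf10 intervals overlap in both cell types, while the capillary Cflar shares, 13.4% in EAE and 6.50% in naive, have separate intervals.

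In microglia-like cells, Tnfsf10 was higher in EAE than in naive. The TRAIL+ libraries had 16.5 CPM in EAE (12.4 to 21.5), 54 UMIs in 33 of 1632 cells, and 4.82 CPM in naive (2.70 to 7.94), 15 UMIs in 11 of 1890 cells. The ratio was 3.42 (1.90 to 6.52). The share of cells with a UMI was 2.02% in EAE (1.40 to 2.83) and 0.58% in naive (0.29 to 1.04). Thinned, it was 1.04% (0.61 to 1.66) and 0.26% (0.09 to 0.62), intervals that just touch. No class that should lack Tnfsf10 reached 50 cells in EAE TRAIL+, so the share given by free RNA could not be read there. In the TRAIL- libraries the level was 41.4 CPM in EAE, 25 UMIs in 9 of 305 cells, and 19.7 CPM in naive, 10 UMIs in 3 of 321 cells, a ratio of 2.11 with an interval of 0.978 to 4.92. The naive share, 0.93% of cells at a median of 1517 UMIs, stood beside 0.58% of naive TRAIL- pericyte-like cells at a median of 800, and 6 of the 10 naive UMIs were in 1 cell. The part of free RNA in it was not tested.

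The microglia-like cells fell into 3 clusters, and different ones hold most of them in EAE and naive. The cluster led by Cd74, Ccl4 and H2-Aa held 760 EAE and 38 naive cells of the TRAIL+ libraries, and 2 clusters led by Ccl4 and P2ry12 held 429 EAE and 721 naive, and 443 EAE and 1131 naive cells. Within the first of these 2 clusters Tnfsf10 stood at 16.1 CPM in EAE (9.21 to 26.2) against 5.31 in naive (2.29 to 10.5). These levels rest on 16 UMIs in 6 EAE cells and 8 UMIs in 6 naive cells. Within the second they were 14.0 CPM in EAE (6.39 to 26.5) against 4.55 in naive (1.83 to 9.38). These rest on 9 UMIs in 6 EAE cells and 7 UMIs in 5 naive cells. Both pairs of intervals overlap, and both pairs of sums were under the 30 UMIs together set for a call. In the Cd74 cluster Tnfsf10 was at 17.6 CPM in EAE. The 38 naive cells had no UMI, which allows up to 42.2 CPM at 3 counts, above the EAE level.

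Microglia-like cells labelled TRAIL+ did not hold more Tnfsf10 than those labelled TRAIL-. In EAE the ratio of TRAIL+ over TRAIL- was 0.397 (0.243 to 0.666), while the thinned shares, 1.04% in TRAIL+ (0.61 to 1.66) and 1.97% in TRAIL- (0.73 to 4.23), overlap in their intervals. The lower level was seen in the Cd74 cluster, with 17.6 CPM in TRAIL+ and 54.3 in TRAIL-. The P2ry12 clusters had 16.1 CPM in TRAIL+ against 10.9 in TRAIL-, and 14.0 in TRAIL+ against 11.4 in TRAIL-, from 1 UMI each in TRAIL-. The 9 Tnfsf10-positive cells of EAE TRAIL- also held markers of other cells: 1558 CPM of endothelial and 2545 CPM of T or NK cell markers, against 435 and 22.3 CPM in the other 296 cells, and 1 of the 9 held 9 of the 25 UMIs. The 33 positive cells of EAE TRAIL+ had 56.6 CPM of endothelial and 14.2 CPM of T or NK markers, below the 153 and 28.6 CPM of the other 1599. The part of these markers in the result was not tested. Naive TRAIL+ over TRAIL- gave 0.245 (0.103 to 0.61) from 15 and 10 UMIs, under the minimum of 30 UMIs in both sums set for a call.

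Monocyte-like cells had 26.4 CPM of Tnfsf10 in EAE TRAIL+, 10 UMIs in 3 of 132 cells, and 1.63 CPM in EAE TRAIL-, 1 UMI in 231 cells. After thinning no monocyte-like cell kept one. The EAE TRAIL+ level rests on 3 cells, of which Scrublet called 1 a doublet, against 0 of the other 129. These 3 cells held 833 CPM of dendritic cell markers, against 132 in the other 129. The part of this in the level was not tested.

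The 250 bases before the RefSeq start of 9 of the 10 genes were searched for 5 motifs on both strands, among 32851 mouse promoters of the same length; Tnfrsf10b was not in the table. The interferon-stimulated response element core (GAAA, 2 bases of any kind, GAAA) was found in 2.98% of all promoters and in Tnfrsf1b among the 9, and the gamma-activated site TTCNNNGAA in 7.02% and in Tnfrsf1a, Tnfrsf1b and Fas. The NF-kB letters (GGG, 2 bases of any kind, TTTCC) were found in 1.41% of promoters and in none of the 9, the GC box GGGCGG in 32.7% and in 5 of the 9, and the TATA letters TATAAA in 12.4% and in Cflar alone of the 9, on both strands with overlap. Matches describe letters, not sites in use. The windows of Tnfsf10 and Cflar are shown because both genes were higher in EAE TRAIL+ than in naive TRAIL+ microglia-like cells. Both are from RefSeq on GRCm38, + strand, 5′ to 3′, and capitals mark a motif match, of which the Tnfsf10 window has none. The first is chr3:27316827-27317027, cut to end before the annotated gene, and the second chr1:58711241-58711490.
Tnfsf10: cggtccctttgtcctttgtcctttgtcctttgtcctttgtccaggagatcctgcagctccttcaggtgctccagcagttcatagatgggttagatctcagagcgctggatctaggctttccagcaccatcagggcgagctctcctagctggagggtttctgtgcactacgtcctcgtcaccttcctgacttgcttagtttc
Cflar: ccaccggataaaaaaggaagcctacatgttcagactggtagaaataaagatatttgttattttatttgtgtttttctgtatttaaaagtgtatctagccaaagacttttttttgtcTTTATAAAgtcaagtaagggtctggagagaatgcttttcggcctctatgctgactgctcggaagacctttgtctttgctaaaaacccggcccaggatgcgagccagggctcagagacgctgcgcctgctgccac

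Receptors for TRAIL and Fas ligand were, like Tnfsf10, mainly endothelial. Tnfrsf10b, at chr14:69767472-69784411 on the + strand, was scarce. It had 26.7 CPM in EAE TRAIL- endothelial-like cells, 15 UMIs in 10 of 498 cells, and 16.9 CPM in naive TRAIL- ones, 19 UMIs in 16 of 1163. Microglia-like cells had 11 UMIs in 1632 EAE TRAIL+ cells, 1 in 305 EAE TRAIL- cells, 4 in 1890 naive TRAIL+ cells and none in 321 naive TRAIL- cells. Endothelial-like cells gave 68.2% of the Tnfrsf10b UMIs of EAE TRAIL- and 90.5% of those of naive TRAIL-. In EAE TRAIL-, the endothelial-like level was 16.1-fold the microglia-like one with a wide interval of 2.48 to 679, and in naive TRAIL- it was at least 2.87-fold higher, with 3 counts in place of 0. EAE over naive in endothelial-like cells was 1.58 with an interval of 0.746 to 3.28.

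Fas, the receptor of Fas ligand, lies at chr19:34290666-34327772 on the + strand. Endothelial-like cells had 109 CPM in EAE TRAIL- (83.2 to 140), 110 in naive TRAIL+ (57 cells, 7 UMIs) and 93.6 in naive TRAIL- (76.6 to 113). Microglia-like cells lay between 0.963 and 6.63 CPM in all 4 libraries, from 1 to 11 UMIs. Monocyte-like cells were in between, with 37.0 CPM in EAE TRAIL+ and 37.4 in EAE TRAIL-. Pericyte-like cells had 6.13 CPM in EAE TRAIL-, all in 1 cell, and 4.55 in naive TRAIL-. The ratio of endothelial- over microglia-like cells was 16.4 in EAE TRAIL- (6.09 to 62.1) and 47.6 in naive TRAIL- (8.36 to 1900), where the microglia-like sum was 1 UMI. Thinned shares were 4.62% of endothelial-like and 0.66% of microglia-like cells in EAE TRAIL-, and 3.44% of endothelial-like and 0.31% of microglia-like cells in naive TRAIL-, with separate intervals in both. EAE and naive endothelial-like cells did not differ beyond the interval, at 1.16 (0.833 to 1.61). Arterial cells of EAE had 180 CPM and capillary ones 87.7, a ratio of 2.05 (1.17 to 3.53), though thinned shares of 9.71% of arterial and 3.29% of capillary cells have overlapping intervals. In naive the arterial cells had 124 CPM and the capillary ones 83.4, a ratio of 1.49 (0.965 to 2.27). Told apart by marker UMIs, the naive log2 ratio turned to -0.94, in place of 0.58.

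Tnfrsf1a and Tnfrsf1b, the TNF receptors with and without a death domain, had different distributions. Tnfrsf1a, at chr6:125349362-125362484 on the + strand, was found in every large class. Microglia-like cells had 231 CPM in EAE TRAIL+, 217 in EAE TRAIL-, 225 in naive TRAIL+ and 214 in naive TRAIL-, levels whose intervals overlap. Monocyte-like cells had 257 CPM in EAE TRAIL+ and 338 in EAE TRAIL-. Endothelial-like cells had 152 CPM in EAE TRAIL- and 111 in naive TRAIL-, a ratio of 1.36 (1.02 to 1.80), short of 1.5-fold. Astrocyte-like cells of naive TRAIL+ had 92.8 CPM, from 19 UMIs.

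In pericyte-like cells, the contractile cells of the capillary wall, Tnfrsf1a was higher in EAE. They had 315 CPM in EAE TRAIL- (267 to 369), in 92 of 465 cells, and 187 in naive TRAIL- (148 to 232), in 55 of 515 cells, a ratio of 1.69 (1.28 to 2.23). Thinned to 500 UMIs, 13.1% of EAE (10.2 to 16.5) and 7.18% of naive pericyte-like cells (5.11 to 9.77) had a UMI. All 15 microglia markers were detected in both sums, at 771 CPM in EAE and 544 in naive, and the monocyte markers summed to 307 CPM in EAE (10 of 11 detected) and 91.0 in naive (6 of 11). Their part in the result was not tested. The pericyte-like level exceeded the endothelial-like one, with endothelial- over pericyte-like ratios of 0.481 in EAE TRAIL- (0.365 to 0.631) and 0.597 in naive TRAIL- (0.449 to 0.799).

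Tnfrsf1b, at chr4:145213463-145246870 on the - strand, was found mainly in myeloid cells. Monocyte-like cells had 235 CPM in EAE TRAIL+ (189 to 290) and 425 in EAE TRAIL- (375 to 479), a ratio of 0.554 (0.431 to 0.708). Thinned shares of 11.4% in TRAIL+ and 14.3% in TRAIL- overlap in their intervals. The 2 monocyte-like groups also differed in marker sums, read in the cells without Tnfsf10. Microglia markers summed to 10699 CPM in 129 EAE TRAIL+ cells and to 3101 in 230 EAE TRAIL- cells. Monocyte markers summed to 16309 CPM in the TRAIL+ and 23060 in the TRAIL- cells. Their part in the ratios of TRAIL+ over TRAIL- monocyte-like cells was not tested. Microglia-like cells had 191 CPM in EAE TRAIL+, 242 in EAE TRAIL-, 196 in naive TRAIL+ and 167 in naive TRAIL-. EAE over naive was 0.975 (0.871 to 1.09) in the TRAIL+ and 1.45 (1.10 to 1.92) in the TRAIL- libraries. Endothelial-like cells had 39.2 CPM in EAE TRAIL- and 25.9 in naive TRAIL-, so endothelial- over microglia-like ratios were 0.162 (0.0985 to 0.255) in EAE and 0.155 (0.0979 to 0.238) in naive. Pericyte-like cells had 1 UMI in 465 EAE TRAIL- cells and none in 515 naive TRAIL- cells. In EAE TRAIL-, 60.7% of all Tnfrsf1b UMIs were in monocyte-like and 34.0% in microglia-like cells.

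Fadd, the adaptor, was near the detection limit in most classes. Its gene, at chr7:144577318-144582463 on the - strand, overlaps the antisense gene Faddos, and the labels do not say whether reads were counted by strand. Microglia-like cells had 11.3 CPM in EAE TRAIL+, 18.2 in EAE TRAIL-, 14.8 in naive TRAIL+ and 11.8 in naive TRAIL-. EAE over naive in the TRAIL+ libraries was 0.763 (0.481 to 1.20). Endothelial-like cells had 5 UMIs in EAE TRAIL- and 16 in naive TRAIL-.

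Casp8, the initiator caspase, was lower in microglia-like cells of EAE. Its gene, at chr1:58795374-58847503 on the + strand, begins 36489 bases after the end of Cflar. Microglia-like cells had 68.5 CPM in EAE TRAIL+ (59.9 to 78.1), 225 UMIs in 149 of 1632 cells, and 112 CPM in naive TRAIL+ (101 to 125), 350 UMIs in 224 of 1890 cells. The ratio was 0.610 (0.514 to 0.723). Shares of cells were closer: thinned, 3.43% in EAE (2.60 to 4.43) and 4.66% in naive (3.75 to 5.71), with overlapping intervals. Within the 2 P2ry12 clusters the levels were 71.5 CPM in EAE against 102 in naive, and 57.5 in EAE against 125 in naive. In the Cd74 cluster they were 71.1 CPM in EAE and 56.3 in the 38 naive cells, from 4 UMIs. The TRAIL- libraries gave 87.9 CPM in EAE and 104 in naive, a ratio of 0.843 (0.565 to 1.26), and 15 of the 53 EAE UMIs were in 1 cell.

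By class, Casp8 followed the myeloid cells. Monocyte-like cells had 55.5 CPM in EAE TRAIL+ and 60.2 in EAE TRAIL-. Endothelial-like cells had 33.9 CPM in EAE TRAIL- and 41.9 in naive TRAIL-, which is 0.385-fold (0.215 to 0.662) and 0.402-fold (0.266 to 0.607) of the microglia-like level in the same library. Pericyte-like cells had 4 UMIs in each TRAIL- library. In naive TRAIL-, arterial cells had 14.2 CPM from 4 UMIs and capillary cells 51.2 from 43, a ratio of 0.277 (0.0723 to 0.764), with overlapping thinned shares of 0.39% of arterial and 1.98% of capillary cells.

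Cflar, the gene of the caspase-8 competitor c-FLIP, was higher in EAE in microglia-like cells of the TRAIL+ libraries and in endothelial-like cells. It lies at chr1:58711508-58758884 on the + strand. Microglia-like cells had 386 CPM in EAE TRAIL+ (365 to 408), in 696 of 1632 cells, and 244 CPM in naive TRAIL+ (227 to 262), in 490 of 1890 cells. The ratio was 1.58 (1.45 to 1.73), and thinned shares were 15.1% in EAE (13.4 to 16.9) and 10% in naive (8.68 to 11.4), with separate intervals. By cluster, the differences were smaller and none reached 1.5-fold. The Cd74 cluster had 462 CPM in EAE (430 to 496) and 380 in naive (251 to 553). The P2ry12 clusters had 299 in EAE (266 to 335) against 258 in naive (233 to 285), and 323 in EAE (281 to 370) against 223 in naive (200 to 248). Only the last pair has separate intervals. In the TRAIL- libraries the levels were 371 CPM in EAE and 324 in naive, a ratio of 1.14 (0.932 to 1.41).

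Endothelial-like cells had 305 CPM of Cflar in EAE TRAIL- (261 to 354), in 115 of 498 cells, and 166 CPM in naive TRAIL- (143 to 192), in 126 of 1163 cells. The ratio was 1.84 (1.48 to 2.27), and thinned shares were 12.2% in EAE (9.50 to 15.5) and 6.62% in naive (5.26 to 8.21). Among cells of at least 1000 UMIs the log2 ratio fell short of 1.5-fold, at 0.54 in place of 0.88. Capillary cells had 307 CPM in EAE and 162 in naive, a ratio of 1.90 (1.48 to 2.43). Arterial cells had 297 CPM in EAE and 178 in naive, a ratio of 1.67 (1.07 to 2.60), with overlapping thinned shares of 7.77% in EAE and 7.06% in naive. Monocyte markers summed to 2180 CPM in EAE and 1512 in naive endothelial-like cells, and the part of these was not tested. Microglia markers summed to 779 CPM in EAE and 684 in naive, and without cells with 1% or more of such UMIs the log2 ratio was 0.89.

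Oligodendrocyte-like cells, few in number, had 23 Cflar UMIs in 13 of 35 EAE TRAIL- cells and 1 UMI in 1 of 79 naive TRAIL- cells. That is 296 CPM in EAE and 7.54 in naive, a ratio of 39.3 with an interval of 6.37 to 1620, on fewer UMIs than the 30 set for a call. Thinned shares were 20% in EAE (8.44 to 36.9) and 0% in naive (0 to 4.56). Tnfrsf1a had 6 UMIs in EAE and none in naive, at least 3.41-fold higher with 3 counts in place of 0. Microglia markers summed to 322 CPM in EAE and 211 in naive, 10 of 15 detected in each; their part was not tested. The other scalings, TMM and DESeq2, moved the median of all genes by 0.16 and 0.17 on the log2 scale in this comparison. Pericyte-like cells had 145 CPM in EAE TRAIL- and 116 in naive TRAIL-, a ratio of 1.25 (0.861 to 1.83). Monocyte-like cells had the highest levels, 434 CPM in EAE TRAIL+ and 594 in EAE TRAIL-, a ratio of 0.730 (0.604 to 0.880). These groups differ in microglia and monocyte marker sums, as given under Tnfrsf1b.

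**Figure D3:**
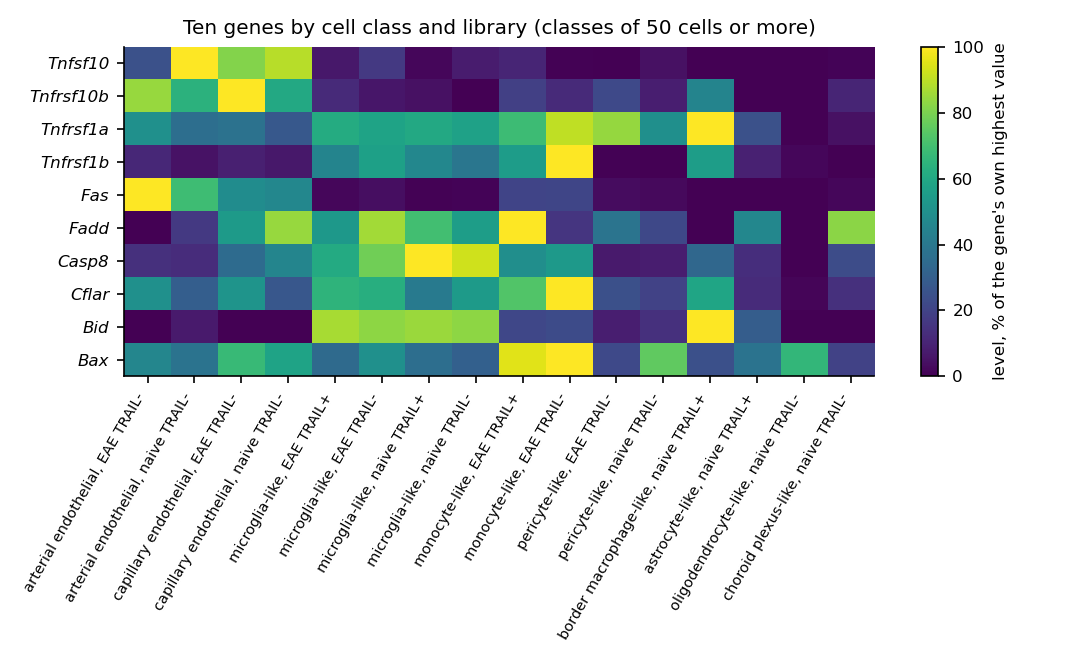
Level of each of the 10 genes (rows) in each cell class and library of at least 50 cells (columns), as a percentage of that gene's own highest CPM; rows cannot be compared with each other. Tnfsf10, Tnfrsf10b and Fas are brightest in endothelial cells, Tnfrsf1b, Cflar and Bax in monocyte-like cells of EAE TRAIL-, and Casp8 and Bid in microglia-like cells or border macrophages.

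Bid, a BH3-only member of the BCL2 family cut by caspase-8, was found mainly in microglia-like cells and border macrophages. It lies at chr6:120891930-120916853 on the - strand and overlaps Bcl2l13 on the other strand. Microglia-like cells had 43.3 CPM in EAE TRAIL+, 41.4 in EAE TRAIL-, 42.4 in naive TRAIL+ and 41.3 in naive TRAIL-, so EAE over naive was 1.02 (0.800 to 1.30) in the TRAIL+ libraries. Border macrophages of naive TRAIL+ had 49.8 CPM, from 4 UMIs in 58 cells. Monocyte-like cells had 10.6 CPM in EAE TRAIL+ and 11.4 in EAE TRAIL-, which is 0.245-fold (0.0657 to 0.640) and 0.275-fold (0.100 to 0.654) of the microglia-like level. Endothelial-like cells had no UMI in 498 EAE TRAIL- cells and 1 in 1163 naive TRAIL- cells. The endothelial-like level in EAE TRAIL- was at least 7.75-fold lower than the microglia-like one, with 3 counts in place of 0.

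Bax, the pore-forming effector, was found in every class but followed another order. It lies at chr7:45461697-45466898 on the - strand and overlaps Gm45808 on the same strand, so its count may include that gene. Monocyte-like cells had 97.9 CPM in EAE TRAIL+ and 103 in EAE TRAIL-, which is 2.77-fold (1.86 to 4.04) and 1.99-fold (1.28 to 3.17) of the microglia-like 35.3 and 51.4 CPM. Naive microglia-like cells had 36.9 CPM in TRAIL+ and 31.5 in TRAIL-. Endothelial-like cells had 64.2 CPM in EAE TRAIL- and 54.4 in naive TRAIL-, a ratio of 1.18 (0.759 to 1.81). Oligodendrocyte-like cells of naive TRAIL- had 67.9 CPM, from 9 UMIs in 8 of 79 cells, and at most 1 UMI of each other gene. Pericyte-like cells had 22.5 CPM in EAE TRAIL-, 11 UMIs in 9 cells, and 77.4 in naive TRAIL-, 34 UMIs in 21 cells, a ratio of 0.291 (0.133 to 0.588). The thinned shares, 0.86% in EAE (0.23 to 2.19) and 3.11% in naive (1.79 to 4.996), overlap.

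The 10 genes were also counted by whether they were at least 1.5-fold apart between EAE and naive, among those with at least 30 UMIs in both sums together. With at most 8 measured genes in a comparison, the counts were not tested against the share of all genes. In microglia-like cells of the TRAIL+ libraries 3 of 8 measured genes were apart, Tnfsf10 and Cflar higher and Casp8 lower, where 24.1% of 10990 genes were apart. Of all genes apart there, 71.6% were higher, against 60.9% after DESeq2 scaling, which left the calls of the 10 genes as they were. In endothelial-like cells 3 of 8 were apart and higher (Cflar, Tnfrsf10b and Tnfrsf1b), where 31.4% of 7168 genes were apart; the Cflar interval excluded 1 and those of the others did not. Pericyte-like cells had 2 of 3 apart, Tnfrsf1a higher and Bax lower, where 28.9% of 5443 genes were. In microglia-like cells of the TRAIL- libraries 2 of 7 were apart and higher (Tnfsf10 and Bax), both with an interval that holds 1, where 43.2% of 5410 genes were apart. Arterial cells had 2 of 4 apart, Cflar higher and Tnfsf10 lower, where 39.5% of genes were, and capillary cells 1 of 7, Cflar, where 33.2% were. The median log2 ratio of the measured genes was -0.00 in TRAIL+ microglia-like cells, where that of all genes was 0.08, and 0.34 in endothelial-like cells, where that of all genes was -0.06.

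**Figure D4:**
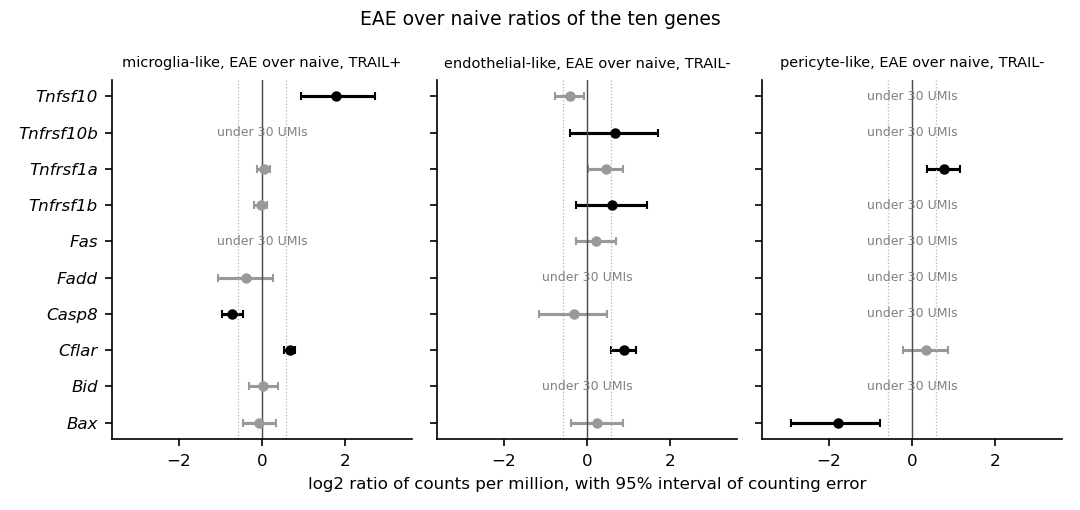
Log2 ratio of CPM in EAE over naive for the 10 genes in microglia-like cells of the TRAIL+ libraries and in endothelial- and pericyte-like cells of the TRAIL- libraries, with 95% intervals of counting error; dotted lines mark 1.5-fold and black points lie beyond it. Tnfsf10 and Cflar lie to the right and Casp8 to the left in microglia-like cells, Cflar to the right in endothelial-like cells (with wide intervals for Tnfrsf10b and Tnfrsf1b), and Tnfrsf1a to the right and Bax to the left in pericyte-like cells.

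Between sort labels, 2 of 8 measured genes were lower in EAE TRAIL+ than in EAE TRAIL- microglia-like cells (Tnfsf10, and Fadd with an interval that holds 1), where 32.1% of 9726 genes were apart. In naive, none of 7 was apart, where 27.9% of 8916 genes were. Monocyte-like cells of EAE had 1 of 6 lower in TRAIL+ (Tnfrsf1b), where 36.8% of genes were apart. Between classes, differences were common among all genes: endothelial- over microglia-like cells had 4 of 7 apart in EAE TRAIL- and 7 of 7 in naive TRAIL-, where 66.6% and 65.7% of genes were. Endothelial- over pericyte-like cells had 5 of 5 apart in EAE and 4 of 6 in naive, where 58.9% and 57.9% were. Monocyte- over microglia-like cells had 4 of 8 apart in EAE TRAIL+ and 5 of 6 in EAE TRAIL-, where 55.6% and 54.9% were. The other scalings shifted the endothelial- over microglia-like ratios of all genes by -0.14 to -0.27 on the log2 scale, and the share of higher among all genes apart in naive was 62.6%, against 51.9% after DESeq2 scaling. Arterial over capillary cells had 2 of 5 apart in EAE and 2 of 6 in naive, where 42.4% and 34.8% of genes were.

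The wider pathway list held 72 genes, the 10 included. Shares of cells are not given for its other genes, so their ratios rest on summed UMIs alone, with intervals that can be too narrow. In microglia-like cells of the TRAIL+ libraries 53 were measured, of which 6 were higher in EAE, 3 lower and 44 between, where 24.1% of all genes were apart. By group, 1 of 3 ligands was higher, none of 5 receptors was apart, and of 7 adaptor and initiator genes 2 were higher and 1 lower. None of 15 BCL2 family genes was apart. Zbp1, an interferon-induced sensor that can start necroptosis, had 72.2 CPM in EAE and 3.21 in naive, a ratio of 22.5 (12.02 to 47.5). Rnf31 and Sharpin, subunits of the linear ubiquitin ligase of the TNF receptor complex, were at 1.64-fold (1.13 to 2.43) and 1.53-fold (1.10 to 2.15). Tnfaip3, the ubiquitin editor A20, had 1921 CPM in EAE and 2891 in naive, a ratio of 0.665 (0.643 to 0.686).

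In endothelial-like cells 39 of the 72 were measured, with 8 higher and 6 lower in EAE, where 31.4% of all genes were apart. The interval excluded 1 for 5 of the 8 and 2 of the 6. Bcl2l1, which encodes the survival protein BCL-XL, had 226 CPM in EAE and 103 in naive, a ratio of 2.19 (1.69 to 2.84). Birc2, an inhibitor of apoptosis protein of the TNF receptor complex, had 57.0 CPM in EAE and 19.6 in naive, a ratio of 2.91 (1.64 to 5.25). Tnfrsf12a, the receptor of TWEAK, was at 1.93-fold (1.33 to 2.80) and Casp9, the initiator of the mitochondrial route, at 3.33-fold (1.55 to 7.47). Bcl2l2 was at 0.274-fold (0.105 to 0.607). Pericyte-like cells had 21 measured, 4 higher and 3 lower, where 28.9% of all genes were apart. Of these, Tnf at 2.30-fold (1.02 to 5.64), Bcl2 at 2.07-fold (1.05 to 4.33) and Bcl2l1 at 2.25-fold (1.18 to 4.52) were the others higher, and Bcl2l11 at 0.466-fold (0.226 to 0.920) and Parp1 at 0.539-fold (0.311 to 0.916) the others lower, beside Tnfrsf1a and Bax. Tnf is also among the leading genes of the microglia-like clusters. Microglia and monocyte marker sums were higher in the EAE pericyte-like cells, as given under Tnfrsf1a, and their part in these ratios was not tested.

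Between EAE TRAIL+ and EAE TRAIL- microglia-like cells 7 of 53 genes were higher and 8 lower, where 32.1% of all genes were apart. The interval excluded 1 for 4 of the 7 and 6 of the 8. Traf1, an adaptor of TNF receptors, had 4.87 CPM in TRAIL+ and 46.4 in TRAIL-, a ratio of 0.105 (0.0531 to 0.201), and Birc2 had 36.3 CPM in TRAIL+ and 6.63 in TRAIL-, a ratio of 5.47 (2.08 to 20.4). Bcl2a1a and Bcl2a1d, near-identical copies whose reads can be split between them, were at 0.590-fold and 0.459-fold. In monocyte-like cells of EAE, 5 of 34 were higher in TRAIL+ and 11 lower, where 36.8% of all genes were apart, and the interval excluded 1 for 3 of the 5 and 8 of the 11. Tnf was at 1.88-fold (1.55 to 2.28) and Zbp1 at 0.459-fold (0.354 to 0.589). The part of the differing microglia and monocyte marker sums of these groups was not tested. Arterial over capillary cells of naive TRAIL- had 1 of 32 higher (Bcl2l1, 1.63-fold) and 15 lower, where 34.8% of all genes were apart, and the interval excluded 1 for 5 of the 15. Among these, Pmaip1, the BH3-only protein NOXA, had 1 UMI in arterial and 93 in capillary cells.

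Over the 16 sums of a class and library with at least 50 cells, the genes most like Tnfsf10 in level by Pearson correlation of log2(CPM + 10), among 4027 genes, were Socs2 (r = 0.912), Rnf144b (0.908), Zfp366 (0.901), Mmrn2 (0.900) and Ctnnb1 (0.900). Those most like Fas were led by Ly6c1 (0.965), those most like Tnfrsf10b by Kitl (0.932), those most like Tnfrsf1b by Pim1 (0.957) and those most like Bid by Gpr183 (0.965). Fadd and Bax had no gene as close, with Bag6 at 0.757 and H2afj at 0.756. These sums share libraries and cell classes, and the correlations describe these sums only.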

How the data were processed

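Per the labels' protocols, cells were dissociated with papain, passed through a 70 µm filter, cleared on 30% Percoll, sorted and barcoded by inDrops. The authors deposited 1 table of UMI counts per library (cells by genes); Bowtie and GRCm38 are named in the submitters' processing notes, with neither version nor annotation. Barcodes with at least 500 UMIs and at most 20% mitochondrial UMIs were kept. The lowest listed barcode total was 100, so the tables were cut before deposit. Scrublet called 77 kept barcodes (0.975%) as doublets; these stayed in. Of the barcode names, 182 occur in more than 1 library (365 kept barcodes). Kept barcodes held 2549414 to 3759970 UMIs per library.

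Cells were scaled to 10000 UMIs and clustered with scanpy 1.11.5 (2000 variable genes, 30 components, 15 neighbours, Leiden resolution 1, Python 3.11.15) without the 10 genes and the wider pathway list. The 15 clusters were named from marker lists; arterial and capillary endothelium are 2 of these clusters, since a further split of the endothelial cells was not made. Counts were summed per class and library and given as CPM with exact Poisson intervals, ratios and shares with exact Clopper-Pearson intervals, all at 95%. A gene was called at 1.5-fold with at least 30 UMIs in both sums together. A sum of 0 was set to 3 counts for a bound. Thinning drew 500 UMIs per cell. On simulated sums with Poisson counting error alone, calls with an interval that excludes 1 recovered 98.0% of 4-fold and 88.7% of 2-fold changes. This was among 11001 genes in the microglia-like TRAIL+ EAE comparison. In the EAE comparisons of endothelial-like (7180 genes), pericyte-like (5450) and arterial cells (2685), 2-fold changes were recovered at 82.7%, 77.7% and 66.3%. UMIs clustered in few cells and variation between libraries were not simulated, so these rates do not carry over to the real counts. TMM (edgeR 4.0.16) and DESeq2 1.42.0 size factors were alternative scalings. Likeness to a gene was taken over 16 sums as log2(CPM + 10), among genes of at least 50 CPM on average.

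Of the gene columns, 98.8% matched GENCODE vM21 symbols, used for coordinates. The genes named beyond the 10 are from those of the 72-gene list that passed the call with an interval excluding 1, and the genes most alike in level; some genes of the list are not reported here. The 10 genes, the lists and the comparisons were chosen with earlier results of these data known.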

Additional observations from a re-analysis of the deposited data

Results flagged for a closer look

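By summed UMIs, the Tnfsf10 ratios of EAE over naive lay in opposite directions in 2 cell classes. Its log2 ratio of EAE over naive was 1.77 in microglia-like cells of the TRAIL+ libraries and -2.01 in arterial endothelial cells of the TRAIL- libraries. The difference between the 2 ratios was not tested, since each rests on 1 library per condition, and the cells come from differently sorted libraries. The arterial value rests on 8 EAE UMIs in 4 cells, and the thinned shares of arterial cells overlap in their intervals. With arterial cells told apart by marker UMIs, it rests on 5 UMIs in 40 EAE cells and 11 in 66 naive cells, and is smaller.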

How the results depend on the processing

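No paired analysis was possible because each group is 1 library and the replicate number only names it. For the same reason no library could be left out. Of 388 values of ratios of the 10 genes other than Tnfsf10 under alternatives, 386 moved by less than their counting interval, 2 moved and 0 changed the sign of a called value. The 2 were Cflar in endothelial-like cells and Fas in naive arterial over capillary cells, given above. With class taken from marker UMIs, the Tnfsf10 log2 ratio was -0.70 for arterial over capillary in naive and -0.71 for EAE over naive in arterial cells. Resolution 0.5 and a minimum of 1000 UMIs left 1 endothelial cluster, so they gave no arterial value.

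The number of genes apart depended on the threshold. Main counts were 3 in EAE over naive TRAIL+ microglia-like cells, 2 in EAE TRAIL+ over TRAIL- microglia-like cells, 3 in endothelial-like and 2 in pericyte-like cells of EAE over naive. At 2-fold these counts were 1, 1, 0 and 1. With at least 100 UMIs together they were 2, 0, 1 and 1, and Tnfsf10 in microglia-like cells, with 54 UMIs in EAE TRAIL+ and 15 in naive TRAIL+, was no longer counted. With at least 1 UMI they were 5, 4, 5 and 7. Cells of at least 1000 UMIs gave 1 for pericyte-like cells. Under TMM and DESeq2 scaling 2 of the 10 were higher and 1 lower in arterial cells of EAE, and 1 was higher and 1 lower in naive arterial over capillary cells. The alternatives that leave cells out by marker UMIs, and those of the arterial and capillary EAE ratios, were chosen after seeing the data. Depth limits Tnfrsf10b, Fadd and Bid, which had under 30 UMIs in most sums, and 1 library a group leaves variation between animals unmeasured.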

Other observations

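Border macrophages of naive TRAIL+, 58 cells, had 374 CPM of Tnfrsf1a in 21 cells, 237 CPM of Tnfrsf1b, 349 CPM of Cflar and no Tnfsf10 UMI. Choroid plexus-like cells of naive TRAIL-, 89 cells, had 81.6 CPM of Cflar, 26.2 CPM of Casp8 and 17.5 CPM each of Fadd and Tnfrsf1a. Astrocyte-like cells of naive TRAIL+, 141 cells, had 73.2 CPM of Cflar, 39.1 CPM each of Bax and Tnfrsf1b, and no UMI of Fas or Tnfrsf10b.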
